A study of Mus musculus with 4 samples.

Results

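Undifferentiated spermatogonia (A_undiff) of untreated testis were divided by their own transcripts into a stem-like side, marked by Gfra1, and a progenitor side, marked by Neurog3, Sox3 or Rarg, and the rest of the transcriptome was compared between them. The members were chosen by measured values. A cell belonged to the Gfra1 side when its normalised Gfra1 level was above 2 and no unique molecular identifier (UMI, one counted RNA molecule) of Neurog3, Sox3 or Rarg was found in it. A cell belonged to the progenitor side when it held no Gfra1 UMI and the summed level of the other 3 genes was above 2.7. The level is the natural log of 1 plus 100000 times the share of the UMIs of the cell, and cells with a Kit level above 3 were left out of both sides. Of 4221 untreated cells that had more than 1000 genes and less than 20% of their UMIs from mitochondrial genes, 471 fell on the Gfra1 side and 1732 on the progenitor side, 2203 in all, out of 7493 such cells and 9229 barcodes in the series.

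The cells came from adult wild-type C57BL/6J mice of 6 to 8 weeks and were sorted as E-Cadherin+ CD49f+ c-KIT- spermatogonia. Each of 2 experiments gave 1 library of untreated cells (CTRL 1 and CTRL 2) and 1 library of cells taken at day 10 after 10 mg/kg busulfan (BU 1 and BU 2). Busulfan alkylates DNA and depletes the germ line. The files held 26802228 UMIs for CTRL 1 and 39904588 for CTRL 2. Each library pooled 3 mice, so n is 2 libraries per group and differences between single mice cannot be seen. The BU libraries took no part in choosing the members and serve here only as a second place to measure the difference between sides set by the same thresholds.

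In the mouse testis, GFRA1 is the co-receptor through which the RET kinase receives the niche factor GDNF, and cells that carry it include the spermatogonial stem cells (SSCs). Progenitors lose GFRA1, gain the transcription factors NEUROG3 and SOX3 and the retinoic acid receptor RARG, and differentiate when retinoic acid reaches them. The passage between these states is taken to be gradual and, within the undifferentiated pool, reversible.

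On the Gfra1 side lay 391 cells of CTRL 1 (12.6% of its cells, exact binomial 95% interval 11.5% to 13.8%) and 80 of CTRL 2 (7.14%, 5.70% to 8.81%). On the progenitor side lay 1313 cells of CTRL 1 (42.3%, 40.6% to 44.1%) and 419 of CTRL 2 (37.4%, 34.6% to 40.3%). These intervals cover counting error only. A further 112 and 48 cells met both positive thresholds, and 814 and 213 held no UMI of the 4 genes. The libraries differed in depth, with a median of 6661 UMIs on the Gfra1 side and 8555 on the progenitor side of CTRL 1, against 22994 and 35141 in CTRL 2, and a single Gfra1 UMI placed 275 of the 391 cells of CTRL 1 on the Gfra1 side but 9 of the 80 of CTRL 2. Just inside and just outside the threshold, Gfra1 levels were 2.004 and 1.979 in CTRL 1 and 2.002 and 1.984 in CTRL 2. The summed progenitor levels there were 2.701 and 2.696 in CTRL 1 and 2.701 and 2.699 in CTRL 2.

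The marker genes are given as a description, since they set the groups. Gfra1 (chr19:58235604-58455909, GRCm38, minus strand) stood at 196 and 176 CPM (counts scaled to the total UMIs of the sum) on its side of CTRL 1 and CTRL 2. On the progenitor side, Neurog3 (chr10:62133090-62134763, plus strand) stood at 95.5 and 46.0 CPM, Sox3 (chrX:60891366-60893430, minus strand) at 182 and 225 CPM, and Rarg (chr15:102234938-102257517, minus strand) at 73.8 and 54.0 CPM. Kit stayed between 0.709 and 3.73 CPM in all 4 sums of CTRL. Germ cell markers were present in the sums of both sides, which does not show that every cell was a germ cell. The RNA helicase gene Ddx4 stood at 250.4 and 286 CPM on the Gfra1 side and 246 and 378 CPM on the progenitor side. The RNA-binding gene Dazl stood at 1228 and 819 CPM on the Gfra1 side and 1224 and 888 CPM on the progenitor side. Cells with somatic RNA on either side are described next.

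Libraries shared barcodes and carried RNA of other cell types, so the gene tests, list counts and comparison with BU were also computed without the cells concerned, whereas shares of cells, cells that met both thresholds and the limit for Dppa3 were not. CTRL 2 and BU 2 held 677 barcodes in common, against 11 for CTRL 1 and BU 1, and 9 of the 80 Gfra1-side and 44 of the 419 progenitor-side cells of CTRL 2 bore such a barcode. Whether a shared barcode is the same cell was not tested, and 498 of those in CTRL 2 held a small share of the UMIs of their counterpart (median 1.35%). Of 24 somatic testis markers, Dlk1, Col1a1 and Wt1 were set apart after the data were seen. Dlk1 stood at 27.0 and 13.8 CPM on the Gfra1 side and 84.5 and 68.8 CPM on the progenitor side. Col1a1 stood at 5.89 and 2.46 CPM on the Gfra1 side and 36.9 and 32.6 CPM on the progenitor side, and Wt1 at 5.19 and 18.7 CPM on the Gfra1 side and 9.89 and 7.84 CPM on the progenitor side. With all 24 markers the share of UMIs was 0.00811% on the Gfra1 side against 0.0139% on the progenitor side of CTRL 1, and 0.0292% against 0.0119% in CTRL 2, and 10 and 19 Gfra1-side and 199 and 286 progenitor-side cells held 3 or more such UMIs. The direction in CTRL 1 thus depended on these 3 genes. Of the other 21 markers, 20 had a UMI, and their summed level was 42.2 CPM on the Gfra1 side against 16.1 on the progenitor side of CTRL 1, and 255 against 16.2 in CTRL 2. Cells with 3 or more UMIs of these markers numbered 4 of 391 and 11 of 80 on the Gfra1 side and 4 of 1313 and 24 of 419 on the progenitor side, and without them the sums were 16.8 against 14.4 CPM and 16.2 against 11.8 CPM. Those cells were chosen by these same markers, so the fall of the sums followed from that choice. On the Gfra1 side of CTRL 2 the highest were Cd74 (88.2 against 0.311 CPM), Aldh1a1 (70.6 against 2.74 CPM), Cldn11 (40.6 against 2.06 CPM), Sox9 (19.8 against 2.18 CPM) and Lyz2 (18.7 against 0 CPM), while Amh, Insl3, Dcn, Col1a2 and Inhba had no UMI on that side of either library. All 16 spermatid markers were higher on the Gfra1 side in both libraries, with summed levels of 1579 against 942 CPM in CTRL 1 and 8941 against 2091 CPM in CTRL 2.

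To ask which genes separate the sides, UMIs were added up per library and side. The 4 totals entered a quasi-likelihood test of edgeR with the library as a block, since both sides of a library are cells of the same pool. Of 13516 genes tested, without the marker genes and Kit, 3197 (23.7%) passed an adjusted p (Benjamini-Hochberg) of 0.05, 1486 (11.0%) higher on the Gfra1 side and 1711 (12.7%) higher on the progenitor side. Over all genes tested the median log2 fold, Gfra1 side over progenitor side, was -0.018. Each count of listed genes from this test below is to be read beside these shares of 11.0% and 12.7%. Counts from other settings have another background. Over all genes, 2352 were higher on the Gfra1 side and 2477 on the progenitor side without cells holding somatic RNA. With DESeq2 these were 803 and 990. CPM below are after TMM scaling, the first value is CTRL 1 and the second CTRL 2, and folds are on the log2 scale with their standard error (SE). Without the library as a block no gene passed the adjusted threshold of the same edgeR test, with 1807 at an unadjusted p under 0.05, against 5119 with the block. DESeq2 with the block called 1793 genes. The test has 1 residual degree of freedom and borrows its spread across genes. With the block, that spread is how far the difference between the sides varies between these 2 libraries, each a pool of mice.

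Genes associated with SSCs were higher on the Gfra1 side as a group. Of 21 such genes, all tested, 18 rose there, none rose on the progenitor side (1 without CTRL 1 or without cells holding somatic RNA), and the median log2 fold was 3.34. The list holds genes that the study itself named from these libraries, so its direction is not independent evidence. The LIM homeobox gene Lhx1 (chr11:84518284-84525535, minus strand) stood at 55.8 and 124 CPM on the Gfra1 side and 2.29 and 0.593 CPM on the progenitor side (log2 fold 6.00, SE 0.51, adjusted p = 0.0004). Nefm, the medium neurofilament gene (chr14:68082590-68124846, minus strand), stood at 84.5 and 248 CPM on the Gfra1 side and 3.94 and 2.64 CPM on the progenitor side (log2 fold 5.59, SE 0.40, adjusted p = 0.000237). Both genes were thus low on the progenitor side of either library. The T-box gene T stood at 19.7 and 16.8 CPM on the Gfra1 side and 0.641 and 0 CPM on the progenitor side (log2 fold 6.00, SE 0.73), so the denominator of its fold rests on few UMIs.

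Further transcription factors of the list followed with smaller folds and higher levels. Foxc2, a forkhead gene, stood at 153 and 99.0 CPM on the Gfra1 side and 17.9 and 7.98 CPM on the progenitor side (log2 fold 3.34, SE 0.17). Etv5 (chr16:22381309-22439719, minus strand), an ETS factor that SSCs need for self-renewal, stood at 128 and 61.6 CPM on the Gfra1 side and 15.8 and 4.68 CPM on the progenitor side (log2 fold 3.31, SE 0.20). Egr2, Eomes, Lhx2 and Pdx1 had log2 folds of 4.26, 3.80, 3.30 and 3.51, each past the threshold. Id4, an inhibitor of basic helix-loop-helix factors and a reporter gene for SSCs, differed less: it stood at 86.6 and 109 CPM on the Gfra1 side and 26.4 and 32.5 CPM on the progenitor side (log2 fold 1.73, SE 0.13). In cells thinned to 5000 UMIs, Id4 had a UMI in 36.4% and 38.7% of Gfra1-side and 10.4% and 10.5% of progenitor-side cells. Among 30 cells of CTRL 2 with somatic RNA and on neither side the share was 20% (exact binomial interval 7.71% to 38.6%). That interval includes the progenitor-side share of CTRL 2, and whether those cells lack Id4 was not tested. Those 30 cells therefore cannot tell whether Id4 on the progenitor side is background. The receptor gene Ret stood at 90.0 and 69.0 CPM on the Gfra1 side and 30.6 and 26.4 CPM on the progenitor side (log2 fold 1.47, SE 0.14).

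The 3 members that did not pass were Glis3 (log2 fold 0.43, adjusted p = 0.0545), Zfp462 (-0.37, adjusted p = 0.066) and Pax7 (-0.67, adjusted p = 0.442). Pax7 lay at or below 3.36 CPM in every sum, which leaves its difference undetermined at this depth.

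**Figure D1:**
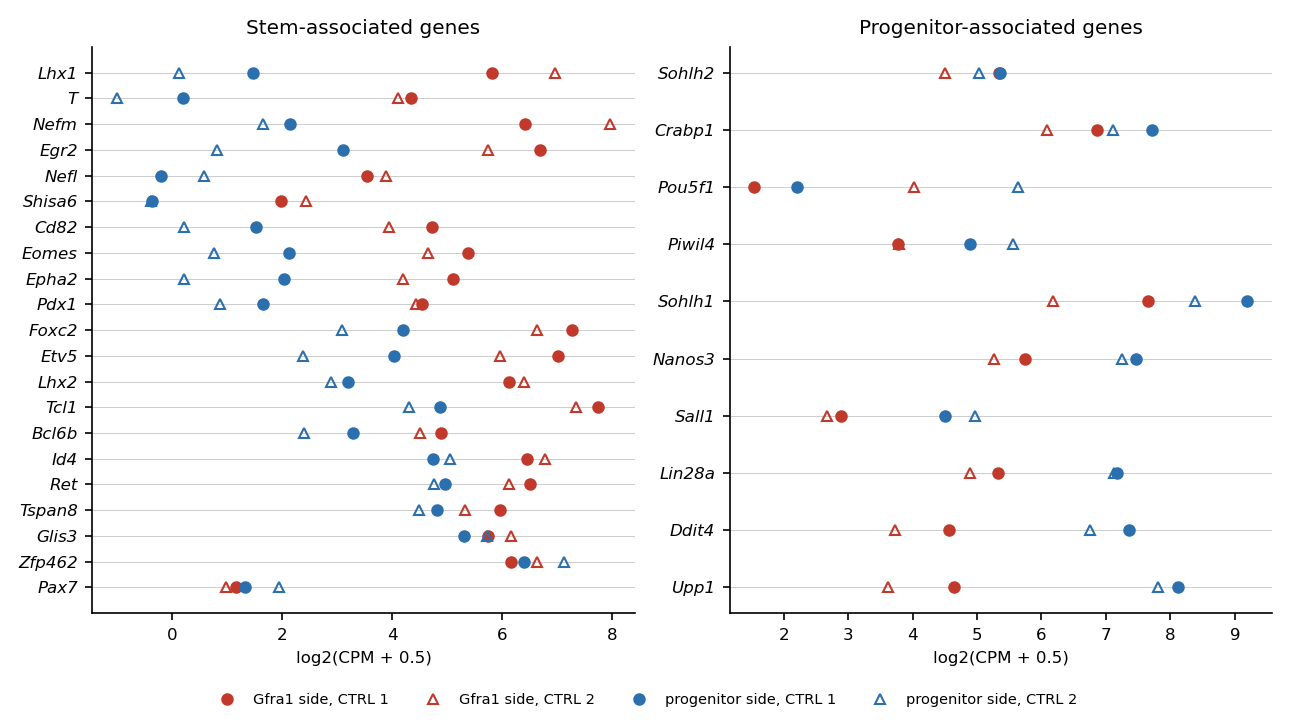
Levels of the stem-associated (left) and progenitor-associated (right) genes on each side of each untreated library, as log2(CPM + 0.5), with 1 point per library and side. Lhx1, T and Nefm lie farthest apart on the left and Upp1 on the right, whereas the sides of Glis3, Zfp462, Pax7 and Sohlh2 lie within 1 log2 unit of each other in either library.

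Genes associated with progenitors were the mirror image. Of 11 such genes other than the markers, 10 were tested, 9 were higher on the progenitor side and none was higher on the Gfra1 side, with a median log2 fold of -1.84. This list too holds genes named by the study from these libraries. Upp1, a uridine phosphorylase gene (chr11:9118103-9136170, plus strand), stood at 24.6 and 11.8 CPM on the Gfra1 side and 276 and 223 CPM on the progenitor side (log2 fold -3.76, SE 0.18, adjusted p = 0.000115). Ddit4, whose product restrains mTORC1, stood at 23.2 and 12.8 CPM on the Gfra1 side and 163 and 107 CPM on the progenitor side (log2 fold -2.90, SE 0.15). In both libraries each lay several-fold higher on the progenitor side.

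Regulators of the step toward differentiation were in the same direction. Sohlh1, a basic helix-loop-helix factor needed for spermatogonial differentiation, stood at 202 and 71.9 CPM on the Gfra1 side and 585 and 334 CPM on the progenitor side (log2 fold -1.83, SE 0.16). Lin28a, a repressor of let-7 miRNAs, stood at 39.5 and 29.1 CPM on the Gfra1 side and 143 and 139 CPM on the progenitor side (log2 fold -2.03, SE 0.15). Nanos3 and Sall1 had log2 folds of -1.85 and -1.99, whereas Sohlh2, the partner of Sohlh1, stood at 40.2 and 22.2 CPM on the Gfra1 side and 40.5 and 32.2 CPM on the progenitor side and did not pass (log2 fold -0.24, adjusted p = 0.383).

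The contrast was seen cell by cell as well as in the sums. Each cell was thinned to 5000 UMIs, which left out 61 and 5 Gfra1-side and 67 and 10 progenitor-side cells of CTRL 1 and CTRL 2, and the listed genes with a UMI were counted. Gfra1-side cells held a median of 5 of the 21 stem-associated genes in both libraries (330 and 75 cells), and progenitor-side cells a median of 1 (1246 and 409 cells). At least 3 were found in 84.2% and 85.3% of Gfra1-side cells against 13.0% and 8.56% of progenitor-side cells. At full depth these shares were 91.3% and 88.8% against 31.7% and 88.3%, and the medians 6 and 12 genes against 2 and 5, so in the deeper CTRL 2 the sides differed in the number of genes and hardly in the share with 3. Cells with somatic RNA and on neither side gave no even background. At least 3 stem-associated genes were found in 3.33% of 30 such cells in CTRL 2, but in 47.6% of 103 in BU 2, and in 50% of 6 in BU 1 and of 2 in CTRL 1. A share is therefore set below beside that of the same library, CTRL 2.

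The progenitor-associated genes gave the reverse picture with more overlap. At least 3 of the 11 were found in 86.8% and 84.1% of progenitor-side cells against 23.6% and 17.3% of Gfra1-side cells. In CTRL 2 the share was 16.7% of the 30 cells with somatic RNA and on neither side, close to that of its Gfra1 side. Whether such cells are somatic was not tested. At full depth the shares were 94.1% and 98.6% against 40.4% and 71.2%. Upp1 alone had a UMI in 65.2% and 59.2% of progenitor-side cells and in 10.6% and 8.00% of Gfra1-side cells, against 13.3% of those 30 cells with somatic RNA. The exact binomial interval of that last share was 3.76% to 30.7%. It includes the Gfra1-side share of Upp1 in CTRL 2, and 30 cells cannot tell the 2 shares apart. Lhx1 had a UMI in 23.0% and 42.7% of Gfra1-side cells and in 0.803% and 0.489% of progenitor-side cells. Among cells with somatic RNA and on neither side its share was 3.33% in CTRL 2, against 19.4% in BU 2.

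Cells that met both positive thresholds held genes of both lists. At 5000 UMIs these cells held a median of 2 and 3 stem-associated genes and of 4 and 3 progenitor-associated genes in CTRL 1 and CTRL 2. At least 3 stem-associated genes were found in 42.6% and 52.1% of them, and at least 3 progenitor-associated genes in 73.1% and 66.7%. Whether single cells or droplets with more than one cell gave this was not tested. Cells with no UMI of the 4 genes (671 and 121) held a median of 2 and 0 stem-associated and of 2 and 0 progenitor-associated genes. At least 3 stem-associated genes were found in 47.4% and 8.26% of them, and at least 3 progenitor-associated genes in 49.2% and 2.48%. In CTRL 1 genes of both lists were thus not particular to cells that met both thresholds.

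**Figure D2:**
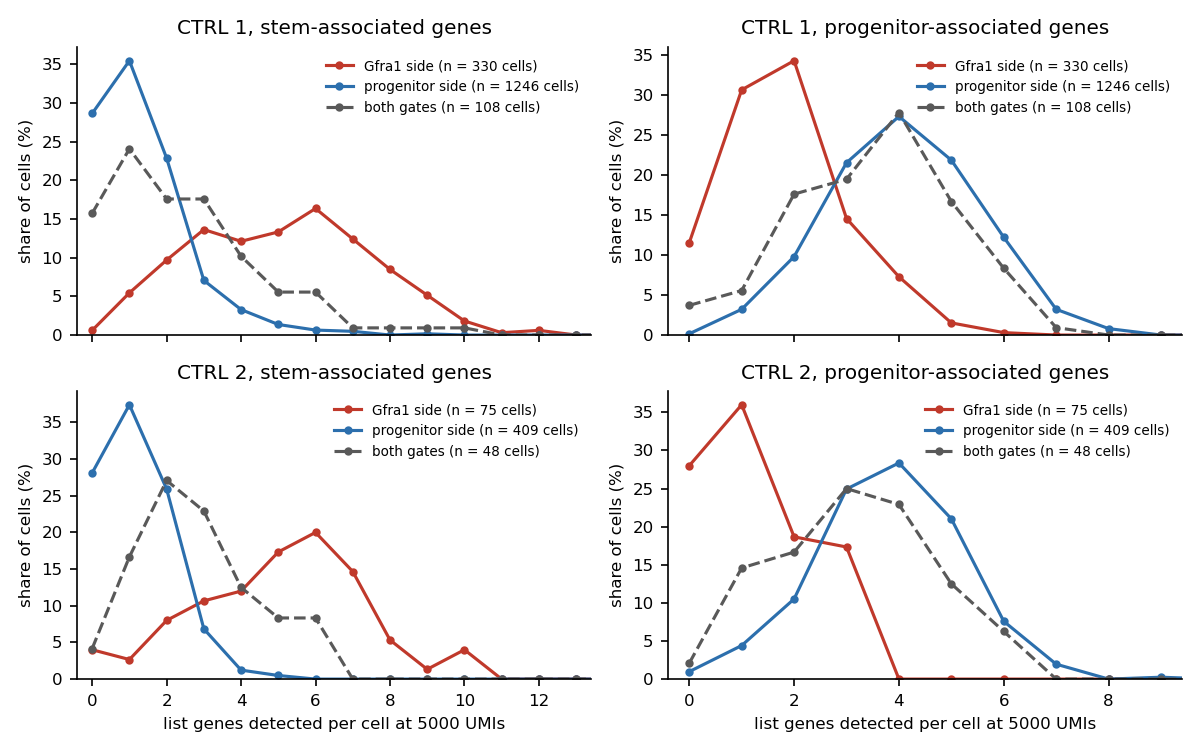
Share of cells (%) by the number of stem-associated (left) or progenitor-associated (right) genes detected after thinning each cell to 5000 UMIs, for CTRL 1 (top) and CTRL 2 (bottom). Gfra1-side cells peak at 6 stem-associated genes and progenitor-side cells at 1 in both libraries.

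Genes that report GDNF and FGF signalling were higher on the Gfra1 side. Of 22 genes of the GDNF receptor, its adaptors and its targets, many also in the stem-associated list, 15 rose on the Gfra1 side and 2 on the progenitor side (median log2 fold 1.71). Of 18 FGF receptor and feedback genes 14 were tested, and 10 rose on the Gfra1 side with none on the other (median log2 fold 1.98). Without CTRL 2, 16 were tested, 9 passed on the Gfra1 side and the median was 1.15. Dusp6, an ERK phosphatase induced by ERK itself (chr10:99263231-99267489, plus strand), stood at 145 and 135 CPM on the Gfra1 side and 11.4 and 5.54 CPM on the progenitor side (log2 fold 4.11, SE 0.22, adjusted p = 0.000143). The Sprouty and Dusp feedback genes Spry4, Spry1, Spry2, Dusp4 and Dusp5 had log2 folds of 3.33, 2.24, 2.03, 3.59 and 1.93, and the ETS factor Etv4 2.09, all past the threshold.

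The adaptors shared by these pathways did not pass the test. The adaptor genes Grb2, Ptpn11, Frs2 and Gab1 had log2 folds of -0.074, 0.18, 0.029 and 0.36, and none passed. The FGF receptor gene Fgfr1 stood at 29.1 and 17.2 CPM on the Gfra1 side and 30.2 and 23.0 CPM on the progenitor side and did not pass (log2 fold -0.21, SE 0.19). Against the direction of the list, Mycn was higher on the progenitor side, at 13.5 and 7.39 CPM on the Gfra1 side and 54.0 and 57.1 CPM on the progenitor side (log2 fold -2.37, SE 0.24), as was Src (log2 fold -1.43).

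Immediate early genes, which respond within minutes to growth factors and to handling, moved in both directions. Of 24 genes 21 were tested, 11 higher on the Gfra1 side and 4 on the progenitor side (median log2 fold 0.71). Fos stood at 34.6 and 24.1 CPM on the Gfra1 side and 4.76 and 1.98 CPM on the progenitor side (log2 fold 3.19, SE 0.30), and Junb, Ier3, Ier2 and Jun had log2 folds of 3.60, 3.17, 2.28 and 2.18. The heat shock gene Hspa1a went the other way, at 3.46 and 0.493 CPM on the Gfra1 side and 53.2 and 53.1 CPM on the progenitor side (log2 fold -4.59, SE 0.37), with its neighbour Hspa1b (-2.61), a near-identical copy whose reads may be shared. Egr3 had no UMI on the Gfra1 side of CTRL 1, so its fold rests on CTRL 2 and turned to -3.24 without that library. Egr1 did not pass (log2 fold -0.063, adjusted p = 0.794), and in cells thinned to 5000 UMIs before they were placed on a side it was higher on the Gfra1 side (0.54).

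Of 14 BMP and Id genes 4, Id2, Id3, Id4 and Smad6, were higher on the Gfra1 side and 9 did not pass (median log2 fold 0.28). Over all genes 11.0% were higher on the Gfra1 side and 12.7% on the progenitor side. The Id products keep basic helix-loop-helix factors from DNA. Id3 stood at 47.8 and 65.0 CPM on the Gfra1 side and 11.7 and 6.66 CPM on the progenitor side (log2 fold 2.64, SE 0.29), and Smad6, a feedback inhibitor, at 25.6 and 26.1 CPM on the Gfra1 side and 2.75 and 1.98 CPM on the progenitor side (log2 fold 3.46, SE 0.31). The receptor gene Acvr1 was higher on the progenitor side (log2 fold -2.18, with 4 and 1 UMIs on the Gfra1 side) and did not pass without CTRL 2. The other receptor genes Bmpr1a, Bmpr1b and Bmpr2 had log2 folds of 0.19, 0.11 and 0.07 and did not pass.

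Of 24 WNT genes 19 were tested, 1 (Shisa6) higher on the Gfra1 side and 4 on the progenitor side, a share close to the 23.7% over all genes. Without cells holding somatic RNA they were 4 and 7. Lef1, a nuclear partner of beta-catenin, stood at 4.16 and 3.45 CPM on the Gfra1 side and 33.4 and 34.4 CPM on the progenitor side (log2 fold -3.13, SE 0.25), and Tcf7l2, the corepressor gene Tle1 and the scaffold gene Apc had log2 folds of -1.63, -1.45 and -0.77. Of 18 Notch genes 14 were tested, 4 higher on the Gfra1 side (Dll4, Lfng, Notch1 and Hes1, log2 folds 4.26, 3.07, 2.10 and 0.53) and 3 on the progenitor side (Hes5, Hey1 and Mfng, -1.17, -1.27 and -2.23). Hes1 and the related targets Hes5 and Hey1 thus differed in opposite directions.

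Several markers held to be common to all A_undiff differed between the sides. Of 14 such genes 13 were tested, 2 higher on the Gfra1 side (Etv5 and Itga6) and 5 on the progenitor side (median log2 fold -0.19, or -0.40 without CTRL 1 and -0.0024 without CTRL 2). Utf1, a chromatin factor, stood at 6.23 and 1.48 CPM on the Gfra1 side and 59.5 and 31.7 CPM on the progenitor side (log2 fold -3.53, SE 0.27). Uchl1, a ubiquitin hydrolase used to stain spermatogonia, stood at 789.6 and 564 CPM on the Gfra1 side and 1505 and 1457 CPM on the progenitor side (log2 fold -1.15, SE 0.13), and Foxo1 at 141 and 63.1 CPM on the Gfra1 side and 283 and 212 CPM on the progenitor side (log2 fold -1.33, SE 0.17). Zbtb16, which encodes PLZF, differed by less, at 187 and 164 CPM on the Gfra1 side and 249 and 257 CPM on the progenitor side (log2 fold -0.53, adjusted p = 0.0114). Sall4 stood at 169.7 and 108 CPM on the Gfra1 side and 141 and 124 CPM on the progenitor side and did not pass (log2 fold 0.052, SE 0.13).

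Of 22 retinoic acid genes 16 were tested, with 3 higher on the Gfra1 side, 4 on the progenitor side and 9 that did not pass (median log2 fold 0.0051, or 0.16 without CTRL 1 and -0.39 without CTRL 2). Without cells holding somatic RNA they were 3 and 6 (median -0.36). Those higher on the progenitor side included the receptor gene Rara (log2 fold -0.94), the carrier gene Crabp1 (-0.93) and the response gene Stra8 (-0.61). Aldh1a3, a retinaldehyde dehydrogenase gene, stood at 20.4 and 38.9 CPM on the Gfra1 side and 4.85 and 0.989 CPM on the progenitor side (log2 fold 3.49, SE 0.65), and the retinaldehyde reductase gene Dhrs3 had a log2 fold of 2.35. Aldh1a1 also passed (log2 fold 3.61) but is a Sertoli and Leydig marker, and without the cells with somatic RNA its log2 fold was -0.25. It was itself one of the markers by which those cells were left out, so its fall followed from that choice. Of 16 genes of entry to differentiation 15 were tested, 7 higher on the progenitor side (Dmrt1 -0.76, Lhx8 -2.83) and 3 on the Gfra1 side, where Ccnd2 (chr6:127125162-127152193, minus strand) stood at 961 and 596 CPM on the Gfra1 side and 249 and 102 CPM on the progenitor side (log2 fold 2.24, SE 0.15). Ccnd2, a D-type cyclin, was listed there as an early differentiation gene and is also a target of GDNF.

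**Figure D3:**
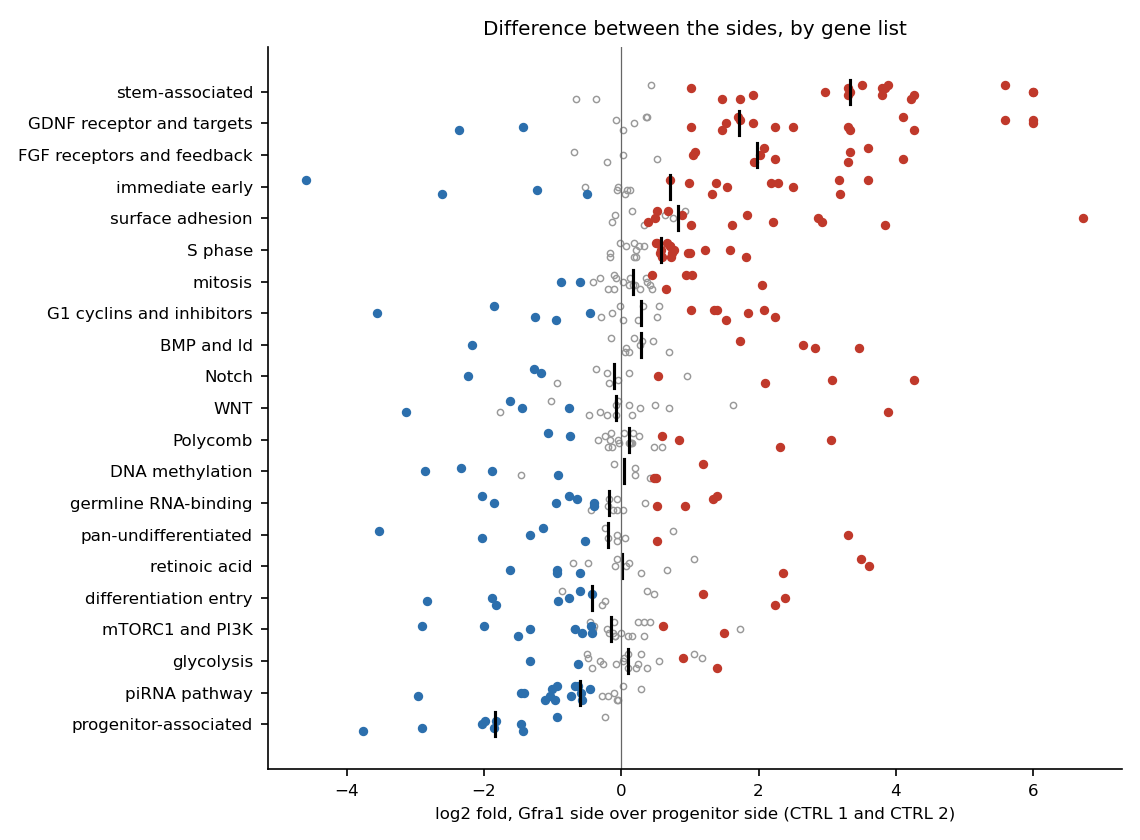
Log2 fold (Gfra1 side over progenitor side) of each tested gene of 21 lists, with the median of each list as a black bar. Red points passed the test with higher levels on the Gfra1 side, blue points with higher levels on the progenitor side, and open grey points did not pass, and genes may appear in several lists. Stem-associated, FGF and GDNF genes lie to the right and progenitor-associated and piRNA genes to the left.

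The piRNA pathway, which silences transposons in the male germ line, was higher on the progenitor side. Of 23 genes 22 were tested, 14 rose on the progenitor side and none on the Gfra1 side (median log2 fold -0.61). Spocd1, which links nuclear piRNAs to DNA methylation (chr4:129929249-129957115, plus strand), stood at 6.58 and 1.97 CPM on the Gfra1 side and 40.9 and 27.3 CPM on the progenitor side (log2 fold -2.96, SE 0.29, adjusted p = 0.000666). Its partner Piwil4, also counted among the progenitor-associated genes, stood at 13.2 and 13.3 CPM on the Gfra1 side and 29.3 and 46.4 CPM on the progenitor side (log2 fold -1.46, SE 0.22). The cytoplasmic Argonaute gene Piwil2, the methyltransferase gene Henmt1 and the nuclease gene Pld6 had log2 folds of -0.74, -1.11 and -1.42. Piwil1 and Asz1 did not pass (-0.062 and 0.028), and in thinned cells 11 of the 22 passed on the progenitor side and 1, Gtsf1 (log2 fold 0.33 there), on the Gfra1 side.

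Of 14 DNA methylation genes 12 were tested, 3 higher on the Gfra1 side, 4 on the progenitor side and 5 that did not pass. The median log2 fold was 0.041, or -0.024 without CTRL 1 and 0.079 without CTRL 2, and without CTRL 2 1 gene was higher on the Gfra1 side. The maintenance genes Uhrf1 (log2 fold 1.20, SE 0.12) and Dnmt1 (0.51, SE 0.11) were higher on the Gfra1 side. The new-methylation genes Dnmt3b, at 39.1 and 16.8 CPM on the Gfra1 side and 118 and 84.8 CPM on the progenitor side (log2 fold -1.88), Dnmt3a (-0.92) and Dnmt3l (-2.33) were higher on the progenitor side. So was Tet3, which encodes a 5-methylcytosine oxidase (chr6:83362373-83459084, minus strand), at 7.97 and 14.3 CPM on the Gfra1 side and 66.8 and 90.8 CPM on the progenitor side (log2 fold -2.86, SE 0.19).

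Of 24 genes in the Polycomb list 23 were tested and 17 did not pass, among them Ezh2 (log2 fold 0.15), Eed (-0.23) and Suz12 (-0.04). The share that passed in the main test was close to the 23.7% over all genes. Without cells holding somatic RNA 7 were higher on the Gfra1 side and 2 on the progenitor side. Without shared barcodes and spermatid RNA as well these counts were 9 and 2. Scmh1 stood at 136 and 109.9 CPM on the Gfra1 side and 30.7 and 19.6 CPM on the progenitor side (log2 fold 2.31, SE 0.14), and Phf19 (3.06), Ybx3 (0.84) and Phc1 (0.60) were also higher on the Gfra1 side, against Cbx2 (-1.06) and Mtf2 (-0.75) on the progenitor side. Ybx3 was counted in this list although it is not itself a Polycomb gene. Of 20 further chromatin genes, 1 was higher on the Gfra1 side and 4 on the progenitor side, a share also close to that over all genes. The remodeller gene Chd4 stood at 359 and 745 CPM on the Gfra1 side and 187 and 401 CPM on the progenitor side (log2 fold 0.92, SE 0.09). The histone methyltransferase gene Ehmt2 (-1.82) and the demethylase genes Kdm1a (-1.09) and Kdm5b (-0.83) were higher on the progenitor side, as was Dppa3.

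Dppa3, a maternal factor that protects methylation in the embryo and is known from primordial germ cells (chr6:122626410-122630272, plus strand), was found on the progenitor side alone. It had 0 UMIs among 4689000 on the Gfra1 side of both libraries together and 313 UMIs on the progenitor side, or 11.3 CPM. Against the limit that a count of 0 allows (3 counts over the group, 0.640 CPM), it was at least 17.7-fold lower on the Gfra1 side.

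Among germline RNA-binding genes, the Nanos family split. Nanos2, known for keeping SSCs undifferentiated, stood at 20.8 and 16.3 CPM on the Gfra1 side and 12.1 and 7.65 CPM on the progenitor side (log2 fold 0.92, SE 0.25), and Nanos3 at 53.3 and 37.9 CPM on the Gfra1 side and 177 and 152 CPM on the progenitor side (log2 fold -1.85, SE 0.13). Elavl2 had a log2 fold of 1.40 and Igf2bp1 of 0.53, both higher on the Gfra1 side, while Dnd1 (-0.65) and Igf2bp2 (-0.94) were higher on the progenitor side. Of 19 tested genes 4 were higher on the Gfra1 side and 7 on the other, or 1 and 4 with DESeq2.

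S phase genes were higher on the Gfra1 side by small folds. Of 26 genes, all tested, 16 rose there and none on the progenitor side, with a median log2 fold of 0.58. Rrm2, a ribonucleotide reductase subunit, stood at 29.8 and 26.1 CPM on the Gfra1 side and 9.98 and 6.13 CPM on the progenitor side (log2 fold 1.82, SE 0.24), and Pcna, the replication clamp, at 120.2 and 101 CPM on the Gfra1 side and 62.2 and 48.6 CPM on the progenitor side (log2 fold 1.00, SE 0.12). The helicase genes Mcm2, Mcm3, Mcm4, Mcm5 and Mcm6 had log2 folds of 0.60, 0.74, 0.58, 0.71 and 0.50, all past the threshold. Mcm7 (0.21), Cdc6 (0.21), Fen1 (0.074) and Pola1 (-0.16) did not pass. In cells thinned before they were placed on a side, 15 of the 26 passed, all on the Gfra1 side.

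Promoters of replication genes are known for E2F sites, and some of the S phase list are shown here as a description. Of that list 16 genes were higher on the Gfra1 side and 10 did not pass. In the 250 bases before each RefSeq gene start, the 8-base words TTTCCCGC, TTTCGCGC, TTTGCCGC and TTTGGCGC were searched on both strands, and overlapping matches were kept, as in Mcm5, where TTTCGCGC shares its last bases with a TTTGGCGC of the other strand. A match was found for 6 of the 21 S phase genes with a promoter in the table (28.6%), against 583 of 27025 symbols in all (2.16%). Shown are 60 bases around 1 match for each of 2 genes that passed the test (Mcm6 and Mcm5) and 2 that did not (Mcm7 and Hells), 5′ to 3′ on the strand of the gene with the matched words in capitals, and where a word lies on the other strand its reverse complement is read. They lie at chr1:128359719-128359778 (minus strand), chr8:75109334-75109393 (plus), chr5:138172015-138172074 (minus) and chr19:38930902-38930961 (plus) of GRCm38.p6.
Mcm6: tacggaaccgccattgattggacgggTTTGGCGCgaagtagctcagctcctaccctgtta
Mcm5: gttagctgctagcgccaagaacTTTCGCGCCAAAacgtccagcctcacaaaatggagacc
Mcm7: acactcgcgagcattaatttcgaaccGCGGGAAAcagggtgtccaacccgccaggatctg
Hells: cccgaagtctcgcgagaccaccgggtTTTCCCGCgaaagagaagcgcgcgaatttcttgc
The words occur in genes of both kinds: of 12 genes with a promoter in the table that were higher on the Gfra1 side, 2 held one, and of the 6 genes with a match 2 were higher there. A match describes the letters of the window and is neither a proven site nor a cause.

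Of 23 mitosis genes, 5 were higher on the Gfra1 side and 2 on the progenitor side (median log2 fold 0.18), a share not far from the 23.7% over all genes. These counts were 4 and 3 without CTRL 1 (median 0.0061) and 9 and 0 without CTRL 2 (median 0.31), 10 and 2 without cells holding somatic RNA, and 8 and 2 without shared barcodes. Mki67 (chr7:135689784-135716361, minus strand) stood at 30.1 and 165 CPM on the Gfra1 side and 8.97 and 34.9 CPM on the progenitor side (log2 fold 2.05, SE 0.17), and Top2a at 128 and 225 CPM on the Gfra1 side and 64.5 and 108 CPM on the progenitor side (log2 fold 1.03, SE 0.11). Ccnb1, Plk1, Cdc20 and Cenpf had log2 folds of 0.029, 0.20, -0.10 and -0.10 and did not pass.

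G1 regulators marked the sides with different members of the same families. Besides Ccnd2, Ccnd1 (1.53), Ccne1 (1.39), E2f1 (1.02) and the inhibitor gene Cdkn1a (1.35) were higher on the Gfra1 side. The kinase gene Cdk6 (chr5:3341485-3531008, plus strand) stood at 3.81 and 6.90 CPM on the Gfra1 side and 65.5 and 54.8 CPM on the progenitor side (log2 fold -3.55, SE 0.27, adjusted p = 0.000275). The inhibitor gene Cdkn1b stood at 4.16 and 26.1 CPM on the Gfra1 side and 16.1 and 92.3 CPM on the progenitor side (log2 fold -1.86, SE 0.19), and Cdkn2a had a log2 fold of -1.26. Of the 20 genes, 7 were higher on the Gfra1 side and 5 on the progenitor side, or 5 and 3 without CTRL 2.

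Of 29 mTORC1 and PI3K genes 28 were tested, 8 higher on the progenitor side and 2 on the Gfra1 side, or 5 and 1 with DESeq2. Over all genes 12.7% were higher on the progenitor side and 11.0% on the Gfra1 side. The median log2 fold of the list was -0.15, or -0.18 without CTRL 2. Eif4ebp1, the translation inhibitor that mTORC1 switches off, stood at 141 and 67.5 CPM on the Gfra1 side and 479 and 331 CPM on the progenitor side (log2 fold -1.99, SE 0.14), and Akt1 at 28.7 and 21.7 CPM on the Gfra1 side and 85.0 and 58.1 CPM on the progenitor side (log2 fold -1.50, SE 0.15). Of 82 cytosolic ribosomal protein genes 59 were higher on the progenitor side and 1 on the Gfra1 side (median log2 fold -0.43), and in thinned cells 60 of 81 and 2 (median -0.27). Of 21 tested glycolysis genes, 2 were higher on either side, a share not far from the 23.7% over all genes. Without shared barcodes these counts were 2 on the Gfra1 side and 6 on the progenitor side. The median log2 fold was 0.096, or 0.061 without CTRL 2. The other 17 did not pass, among them Gapdh (log2 fold 0.10) and Pkm (0.045). Eno1 was higher on the progenitor side, at 219.9 and 149.8 CPM on the Gfra1 side and 541 and 387 CPM on the progenitor side (log2 fold -1.33, SE 0.10).

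Surface molecules were higher on the Gfra1 side wherever they passed. Of 23 adhesion genes 20 were tested and 13 rose on the Gfra1 side, with none on the progenitor side. Mcam stood at 141 and 129 CPM on the Gfra1 side and 27.7 and 30.5 CPM on the progenitor side (log2 fold 2.22, SE 0.13), and Epcam at 167 and 213 CPM on the Gfra1 side and 57.6 and 66.4 CPM on the progenitor side (log2 fold 1.61, SE 0.11). Cd82 (3.85), Ncam1 (2.87) and Itgav (2.92) had larger folds at lower levels. Bcam had the largest fold (6.73) but fell below the filter on low counts once the cells with somatic RNA were left out. Itga6, whose product is the CD49f used in the sort, had a log2 fold of 0.52 (adjusted p = 0.049).

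Neuron-associated and p53 genes gave no common direction, and the direction of the interferon genes depended on the cells with somatic RNA. Of 14 tested neuron-associated genes 5 were higher on the Gfra1 side, led by Nefm and Nefl (4.22), and 3 on the progenitor side, the internexin gene Ina (-1.27), the tubulin regulator gene Stmn1 (-0.74) and the synaptotagmin gene Syt1 (-3.94). Of 19 tested p53 targets, 4 were higher on the Gfra1 side and 3 on the progenitor side, against 11.0% and 12.7% over all genes. Without cells holding somatic RNA these counts were 5 and 5. Pmaip1 stood at 97.0 and 84.3 CPM on the Gfra1 side and 20.7 and 14.7 CPM on the progenitor side (log2 fold 2.37, SE 0.15). The 3 higher on the progenitor side were Ccng1 (-1.11), Trp53inp1 (-0.99) and Bax (-0.48). Of 19 tested MHC and interferon genes, 4 were higher on the Gfra1 side and 6 on the progenitor side, and without the cells with somatic RNA these became 1 and 9 of 16. On the Gfra1 side they numbered 7 without CTRL 1 and 2 without CTRL 2. Ifitm1 (chr7:140967221-140969825, plus strand), which marks early germ cells, stood at 1.73 and 0 CPM on the Gfra1 side and 78.2 and 60.4 CPM on the progenitor side (log2 fold -6.12, SE 0.39, adjusted p = 0.000188), while the log2 fold of its relative Ifitm2 was 0.96 with the cells that held somatic RNA and -1.64 without them. Isg15, an interferon-induced ubiquitin-like gene, had a log2 fold of -3.04.

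By size alone, the 15 largest differences toward the Gfra1 side, among genes with a mean of at least 20 CPM, held 2 kinds of gene. Lhx1, Nefm, Plvap, Plekhh3 and Zic1 changed little when the cells with somatic RNA were left out: the endothelial vesicle gene Plvap had a log2 fold of 4.95 with them and 5.03 without, Plekhh3 4.59 and 4.61, and the zinc finger gene Zic1 4.32 and 4.33. The level of the other 10 fell when those cells were left out, most of all in CTRL 2. Gstm2 stood at 25.3 and 308 CPM on the Gfra1 side with them and 6.44 and 6.23 CPM without, and its log2 fold went from 4.60 to 0.39 and no longer passed. Tmem176b went from 20.8 and 177 CPM to 14.3 and 10.6 CPM and still passed (log2 fold 2.27), as did Tmem176a (1.83) and Mgst1 (1.92).

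The remaining 6 no longer passed or could not be tested. Cpe had a log2 fold of 4.27 with these cells and -1.86 without, and 1500015O10Rik, Cd74, Lcn2, C3 and Ifitm3 fell below the filter on low counts. Cd74 was itself one of the markers by which the cells were left out. In their place Egr2, Dusp6, Rab4a, Phlda1, Foxc2, Etv5, Irx1, Lhx2, Prrx2 and Barx1 entered the largest 15. Several of these are homeobox genes, with log2 folds of 3.38 for Irx1, 3.37 for Lhx2, 3.35 for Prrx2 and 3.33 for Barx1 in that fit, a setting chosen after the data were seen.

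**Figure D4:**
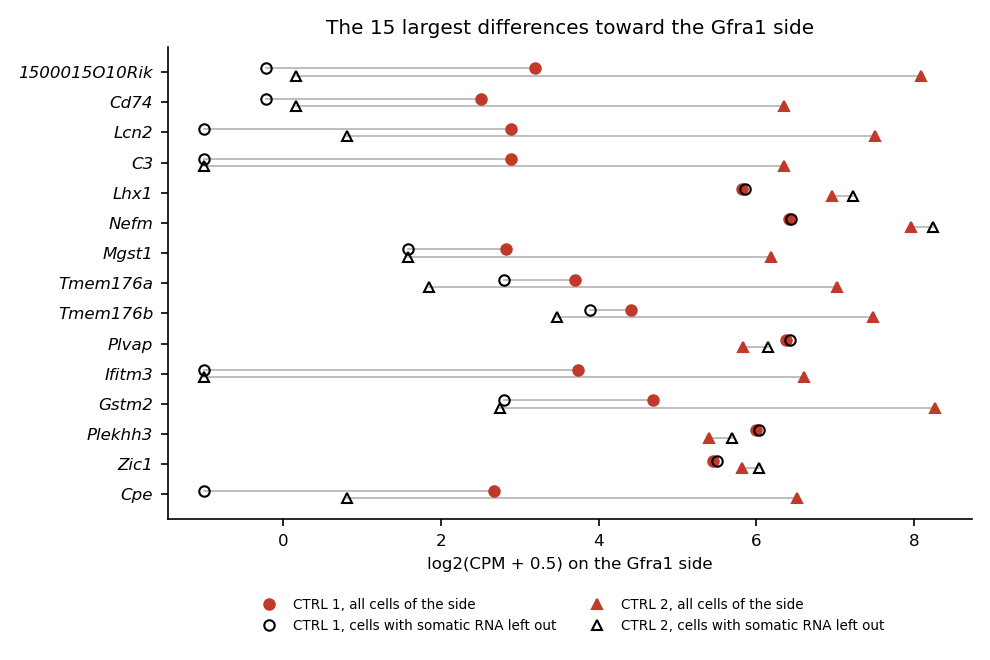
Level on the Gfra1 side, as log2(CPM + 0.5), of the 15 genes with the largest log2 folds toward that side, with all its cells (red) and with cells holding 3 or more UMIs of somatic markers left out (open black), joined by a grey line, for CTRL 1 (circles) and CTRL 2 (triangles). Lhx1, Nefm, Plvap, Plekhh3 and Zic1 stay in place, and the others fall, most of all in CTRL 2.

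The largest differences toward the progenitor side did not depend on these cells. Ifitm1, Mobp (-4.93), Hspa1a, Phlda2 (-4.53), Cthrc1 (-4.22), Upp1, Igfbp6 (-3.66), Cdk6, Utf1, Hspg2 (-3.39), Epb41l4a (-3.32), Ndrg4 (-3.15), Apba2 (-3.01), Lmo1 (-2.98) and Acaa1b (-2.96) passed in the main test, without cells with somatic RNA, in thinned cells and with DESeq2. The imprinted gene Phlda2, which restrains placental growth, stood at 6.58 and 1.48 CPM on the Gfra1 side and 109 and 90.5 CPM on the progenitor side (SE 0.29). Mobp, named for its protein in myelin, stood at 2.77 and 0 CPM on the Gfra1 side and 55.6 and 39.2 CPM on the progenitor side (SE 0.42). The 15 were chosen from these same sums by the size of their fold, so their levels are given only as a description. None exceeded 24.6 CPM on the Gfra1 side of either library, and all were between 31.7 and 276 CPM on the progenitor side.

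Markers of later germ cells need the depth of the cells beside them. Of 16 spermatid genes 12 passed toward the Gfra1 side (median log2 fold 1.24), with the protamine gene Prm1 at 233 and 2624 CPM on the Gfra1 side and 126 and 616 CPM on the progenitor side (log2 fold 1.53). In cells thinned to 5000 UMIs before they were placed on a side, none of 14 tested passed toward the Gfra1 side and 7 passed toward the progenitor side (median log2 fold -0.68), Prm1 with a log2 fold of -0.86. Without shared barcodes 6 of 16 passed toward the Gfra1 side, and without CTRL 2 5 did. The direction of these genes thus changed with the cells counted, and their part in the other results was not tested beyond leaving out cells with over 1% spermatid UMIs. Of 14 spermatocyte genes, 3 were higher on the Gfra1 side and 2 on the progenitor side (1 and 1 with DESeq2), against 11.0% and 12.7% over all genes. Of 10 tested somatic markers these counts were 5 and 2, or 3 and 2 with DESeq2. Without the cells with somatic RNA they were 1 and 3 of 9. Those cells were left out by markers of this same list, so the change followed in part from that choice.

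The same thresholds were then applied to the BU libraries, which had not been used to choose the members. They placed 694 and 273 cells of BU 1 and BU 2 on the Gfra1 side and 209 and 68 on the progenitor side. The Kit threshold took out 41 and 10 cells of BU that met the other conditions, against 0 and 2 of CTRL. Kit stood at 30.8 and 40.0 CPM on the progenitor side of BU, against 1.63 and 2.98 CPM in CTRL. On the Gfra1 side it stood at 5.38 and 8.01 CPM in BU, against 0.709 and 3.73 CPM in CTRL. Whether the sides of BU hold the same kinds of cells as those of CTRL was not tested. Of 12508 genes tested 1639 (13.1%) were higher on the Gfra1 side and 1446 (11.6%) on the progenitor side. Of the 3197 genes that passed in CTRL, 3028 were tested in BU, and 94.9% of these had the same sign there, compared with 75.9% of all genes tested in both. With the shared barcodes left out the shares were 93.8% and 75.9%. In BU 1772 of the 3028 passed in the same direction and 10 in the opposite one.

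Single genes differed in BU as well. Lhx1 stood at 139 and 184 CPM on the Gfra1 side of BU 1 and BU 2 and at 2.28 and 3.58 CPM on the progenitor side (log2 fold 5.77, SE 0.19). Upp1 stood at 4.94 and 2.53 CPM on the Gfra1 side against 44.2 and 69.7 CPM (log2 fold -3.96, SE 0.33), and Dusp6 at 197 and 116 CPM against 17.8 and 5.81 CPM (log2 fold 3.75, SE 0.18). The direction was that of CTRL for all 3. Of the stem-associated list 20 of 21 were higher on the Gfra1 side of BU, and of the progenitor-associated list 8 of 10 on the other side. Of the S phase list 10 of 26 were higher on the Gfra1 side of BU and 1, Gins2 (log2 fold -0.54), on the progenitor side.

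The difference between the sides was itself compared between BU and CTRL by an interaction term over 8 sums, and 33 of 13553 genes (0.243%) passed. The coactivator gene Cited1, with the smallest p of these, stood at 18.0 and 11.3 CPM on the Gfra1 side and 29.2 and 16.5 CPM on the progenitor side of CTRL, and at 11.6 and 10.9 CPM against 169 and 124 CPM in BU. Its side difference was larger toward the progenitor side in BU (log2 difference of folds, BU minus CTRL, -3.04, SE 0.26, adjusted p = 0.000761). Klf2, a Krueppel-like factor gene, stood at 36.7 and 19.6 against 81.0 and 49.9 CPM in CTRL and at 66.4 and 60.3 against 42.5 and 26.7 CPM in BU (difference of folds 2.12, SE 0.24), so that its higher side was the progenitor side in CTRL and the Gfra1 side in BU. Cdkn1b stood at 4.15 and 26.0 against 16.1 and 92.3 CPM in CTRL and at 16.4 and 22.0 against 17.4 and 20.9 CPM in BU (difference of folds 1.86, SE 0.27), and without the shared barcodes this difference was 1.79 (adjusted p = 0.0682).

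**Figure D5:**
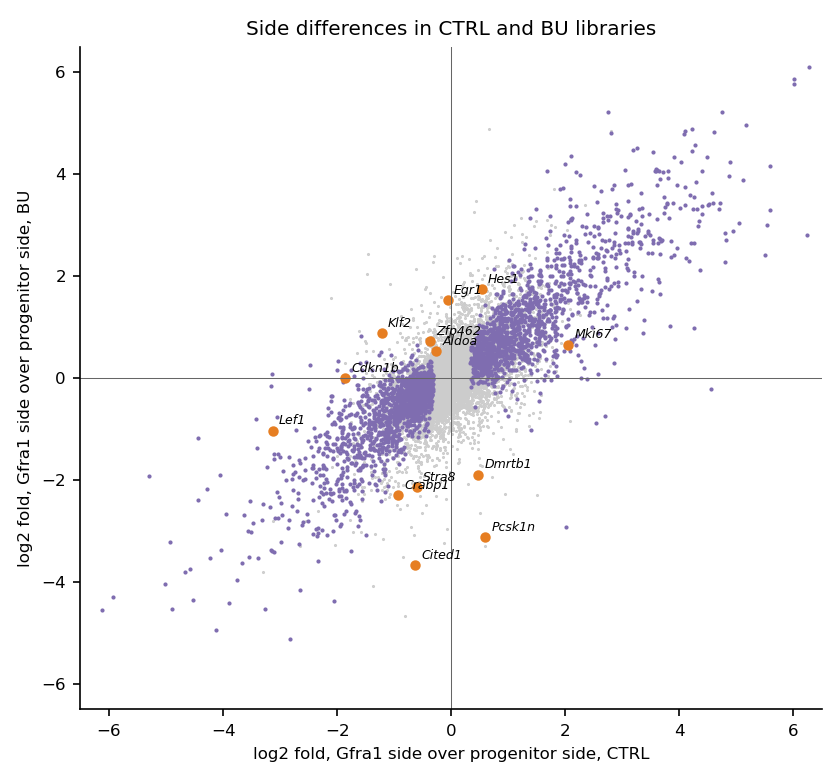
Log2 fold between the sides (Gfra1 side over progenitor side) in the untreated libraries (x axis) and in the busulfan libraries (y axis), with 1 point per gene tested in both. Genes that passed in CTRL are violet, others grey, the 13 named genes whose side difference differed between BU and CTRL are orange, and 16 genes lie beyond the axes at 6.5. Most violet points lie where both folds have the same sign.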

How the data were processed

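Adult mouse spermatogonia were profiled by 10x Genomics single-cell RNA-seq in 2 CTRL and 2 BU libraries, with kit version 2 in experiment 1 and 3.1 in experiment 2 per the labels, while the study's methods name version 2 alone. The authors made filtered matrices of UMI counts with Cell Ranger (3.0.2 per the file headers), and these deposited counts were used without change. The study's methods name the mm10 build and the labels GRCm39, so gene positions are from GENCODE M21 on GRCm38 and promoters from RefSeq on GRCm38.p6. The submitters' processing notes also name Seurat 3.2.

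Cells needed more than 1000 genes and less than 20% mitochondrial UMIs. They were placed on a side by the thresholds given, and summed per library and side. Sums were compared with edgeR 4.0.16 (R 4.3.3): filterByExpr, TMM, quasi-likelihood test, Benjamini-Hochberg threshold 0.05, library as a block because both sides of a library come from the same pool of mice. Doublets were kept, and leaving out called ones was an alternative. The alternatives were DESeq2 1.42.0, other scaling and filters, other thresholds, thinned cells, and leaving out cells or libraries. The members and gene lists were chosen with earlier results of these data known. Named genes were those of the lists, the 15 genes with the largest log2 fold in each direction among those past the threshold with the same sign in both libraries and a mean of at least 20 CPM, and, for the comparison with BU, the 5 with the smallest p at that mean. Genes that entered the largest 15 without cells holding somatic RNA were chosen after their values were seen. The value of 1 listed gene is not reported here. Per-cell shares were computed with Python 3.11.15, numpy 2.4.6 and scanpy 1.11.5.

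In 1 draw of simulated counts from the CTRL means (13175 genes), the test recovered 44.4% of genes changed by 1 log2 unit and 87.9% of those changed by 2, and 5.07% of its calls were false. In 1 draw from the BU means (12191 genes) it recovered 0% and 64.2%. Without the block it recovered 0% in CTRL. Each draw changed 200 genes, gave every gene the same spread and held no variation of the side difference between libraries. These shares describe that setting and are not an error rate for the data.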

Additional observations from a re-analysis of the deposited data

Results flagged for a closer look

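By the interaction test, the difference between the sides differed between BU and CTRL for 33 of 13553 genes (0.243%), 13 of them named here. Of the 13, Cited1, Pcsk1n, Klf2, Crabp1 and Egr1 were the 5 with the smallest p of this same test. The rule named genes by that p, so their passing adds no support. The values are log2 differences of folds, BU minus CTRL, and a positive value means a shift toward the Gfra1 side in BU. Shifts toward the progenitor side were seen for Pcsk1n (-3.71), Cited1 (-3.04), Dmrtb1 (-2.39), Stra8 (-1.54), Mki67 (-1.41) and the retinoic acid carrier gene Crabp1 (-1.36). Shifts toward the Gfra1 side were seen for Klf2 (2.12), Lef1 (2.10), Cdkn1b (1.86), Egr1 (1.59), Hes1 (1.22), Zfp462 (1.09) and Aldoa (0.80). Without the barcodes that libraries share, Cited1, Pcsk1n, Klf2, Crabp1, Egr1 and Dmrtb1 still passed. The other 7 did not (adjusted p from 0.0682 to 0.327), with differences of 2.03 for Lef1, 1.79 for Cdkn1b, 1.19 for Hes1, 0.88 for Zfp462, 0.78 for Aldoa, -1.28 for Stra8 and -1.31 for Mki67. In cells thinned to 5000 UMIs the difference for Egr1 fell to 0.57 and did not pass the same test (adjusted p = 0.354). Cdkn1b (1.54), Hes1 (1.05) and Lef1 (1.59) did not pass there either. Without BU 1 the differences were -2.87 for Cited1, -3.42 for Pcsk1n and 2.40 for Klf2. For Crabp1, Egr1 and Dmrtb1 they were -1.53, 1.69 and -2.08. Without BU 2 the same 6 genes had -3.21, -4.04, 1.88, -1.18, 1.49 and -2.73. Fits of this kind hold 1 BU library, so passing there rests on spread taken from the CTRL libraries. They are among the alternative settings counted next. Each of the 13 passed in 6 to 11 of 12 alternative settings, 1 of which, DESeq2, gave no adjusted p for Cited1, Pcsk1n, Klf2, Dmrtb1, Cdkn1b, Hes1 and Lef1.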

How the results depend on the processing

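The comparison of the sides rested on the library as a block: with no replicate block edgeR called 0 genes in CTRL, 0 toward either side, with 1807 at an unadjusted p under 0.05, 249 in BU, and 0 for the difference between BU and CTRL, with 249 at an unadjusted p under 0.05. DESeq2, with the block, called 1793 (803 toward the Gfra1 side, 990 toward the progenitor side), 1169 and 141, and a test against a fold of 1.5 called 1010 (543 and 467). Cells thinned to 5000 UMIs gave 1127 calls toward the progenitor side, 1461 in BU and 85 for the difference, and sides set by any UMI of the markers gave 1027 toward the progenitor side. Leaving out cells with somatic RNA, chosen after seeing the data, gave 4829 calls (2352 toward the Gfra1 side) and 426 for the difference. The difference between BU and CTRL was the least stable count, with 427 genes without a filter on low counts, 196 without cells holding somatic or spermatid RNA, 8 without the shared barcodes, 276 without all 3 kinds of cells, and 6 to 317 without 1 library (317 without CTRL 1, 178 without CTRL 2, 6 without BU 1). Calls in CTRL ranged from 2315 to 3476 without 1 library, in a fit with the BU libraries that takes the lone library to vary like the others. Changes of sign were counted only for genes that passed in the main test or in the setting concerned. Of 477 named genes, 26 changed sign in this way in at least 1 setting. In thinned cells these were Tnp1 (-0.45), Odf2 (-0.20), Akap4 (-0.62), Smcp (-1.38), Oaz3 (-0.25), Gapdhs (-0.52), Tssk6 (-0.93), Dbil5 (-0.76), Tnp2 (-0.74), Prm2 (-1.25), Prm1 (-0.86), Pgk2 (-0.26), Crisp2 (-0.37) and Egr1 (0.54). Without cells with somatic RNA, and then without shared barcodes and spermatid RNA as well, they were Wt1 (-2.11, -2.02), Ldhb (-0.028, -0.0073), Ifitm2 (-1.64, -1.53), Dhrs4 (-2.43, -2.32), Sox9 (-0.054, -0.15), Ly6e (-0.73, -0.62), Psmb8 (-1.68, -1.85), Aldh1a1 (-0.25, -0.057) and Cpe (-1.86, -2.76), and in the second setting alone Lcn2 (-0.27), Dbil5 (-0.065) and Pgk2 (-0.061). Of these, Sox9 and Aldh1a1 were among the markers by which the cells with somatic RNA were left out. Without cells holding somatic or spermatid RNA they were Smcp (-0.10), Ifitm2 (-1.50), Dbil5 (-0.20), Ly6e (-0.43), Tnp2 (-0.14), Psmb8 (-1.45) and Pgk2 (-0.22). Dbil5 was at -0.0067 without shared barcodes, Ccna1 at 1.18 with sides set by any UMI, and Egr3 at 2.89 without CTRL 1 and -3.24 without CTRL 2. The cause of these changes was not tested. With 2 libraries per group, and 275 of the 391 Gfra1-side cells of CTRL 1 placed by a single UMI, cells on the wrong side and genes with few UMIs limit what can be seen.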
